A study of Schmidtea mediterranea with 24 samples.

Results

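Planarians fed *post2b* dsRNA were compared directly with planarians fed *hox3b* dsRNA, using 4 RNA-seq libraries of each group and no control library. The members were all genes with at least 0.5 TPM (a level divided by transcript length and scaled to the same total in every library) in at least 4 of these 8 libraries. This left 15226 of 22197 genes, and 6971 were left out, of which 2830 were at 0 TPM in all 8. The fourth highest TPM of the 8 was 0.501 in the gene just inside this limit and 0.499 in the gene just outside it. The whole series holds 24 libraries in 6 groups of 4: *hox1*, *hox3a*, *hox3b*, *lox5b*, *post2b* and control RNAi. Every animal was an adult *Schmidtea mediterranea* of the asexual line CIW4, a clonal laboratory line, so the groups differed in the dsRNA they were fed. Each group received 7 feedings of purified dsRNA and was starved for 5 days before freezing. Control animals ate dsRNA against *unc-22*, a nematode gene. A library was made from the whole bodies of 3 pooled animals, so the spread between libraries is a spread between pools, and neither a single animal nor a body region can be read from it.

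Hox genes encode homeodomain transcription factors that give positional identity along the head-to-tail axis of animals. Asexual planarians reproduce by transverse fission, in which the tail is held to the ground while the body stretches until a posterior fragment tears off. Holding on depends on the marginal adhesive gland, a belt along the body edge in which viscid gland cells secrete adhesive and anchor cells of the epidermis carry the mechanical load. *post2b* belongs to the posterior class of Hox genes and *hox3b* to the anterior *hox3* class, and the study placed both among the Hox genes with a part in fission. The comparison asks which transcripts separate the animals that lost one from the animals that lost the other.

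The 2 dsRNAs are what sets the groups apart, so the primers that bounded their templates are shown here without the cloning overhang of 21 bases that all of them share. All bases are in lower case because no stretch within them is singled out.
post2b forward: gtcaattaacgaattctccggat
post2b reverse: gatataactgaatcgctctgtcg
hox3b forward: tagtccacacatcatgagaaaga
hox3b reverse: taggaaataaatgccggattgtc
Each is 23 bases long and is written 5′ to 3′. The sources used here do not pair *post2b* or *hox3b* with a gene model of the table, so the silencing of either target could not be checked in these libraries, and the groups rest on the labels.

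Most of the genes that differed between both treatments were at a lower level in *post2b* RNAi. Of the 15226 genes, 330 were lower and 60 were higher in *post2b* RNAi than in *hox3b* RNAi, at a fold of at least 1.5 and an adjusted p under 0.05 (limma on log2(TPM + 0.5), Benjamini-Hochberg over all genes tested). These are 2.17% and 0.394% of the genes tested, so 84.6% of the genes called were lower. Among the lower genes 102 changed at least 2-fold, 45 at least 4-fold and 5 at least 8-fold. Among the higher genes 9 changed at least 2-fold and none reached 4-fold. Among the lower genes were the anchor cell genes of the marginal adhesive gland, such as *plg1*, *ifb* and *lmnAC*, with log2 differences of -3.05, -2.92 and -2.83. The higher genes included abundant transcripts that carry no name in the sources used here. SMESG000028264.1 was such a transcript, with a mean of 8329 TPM in *post2b* RNAi and 4463 TPM in *hox3b* RNAi.

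**Figure D1:**
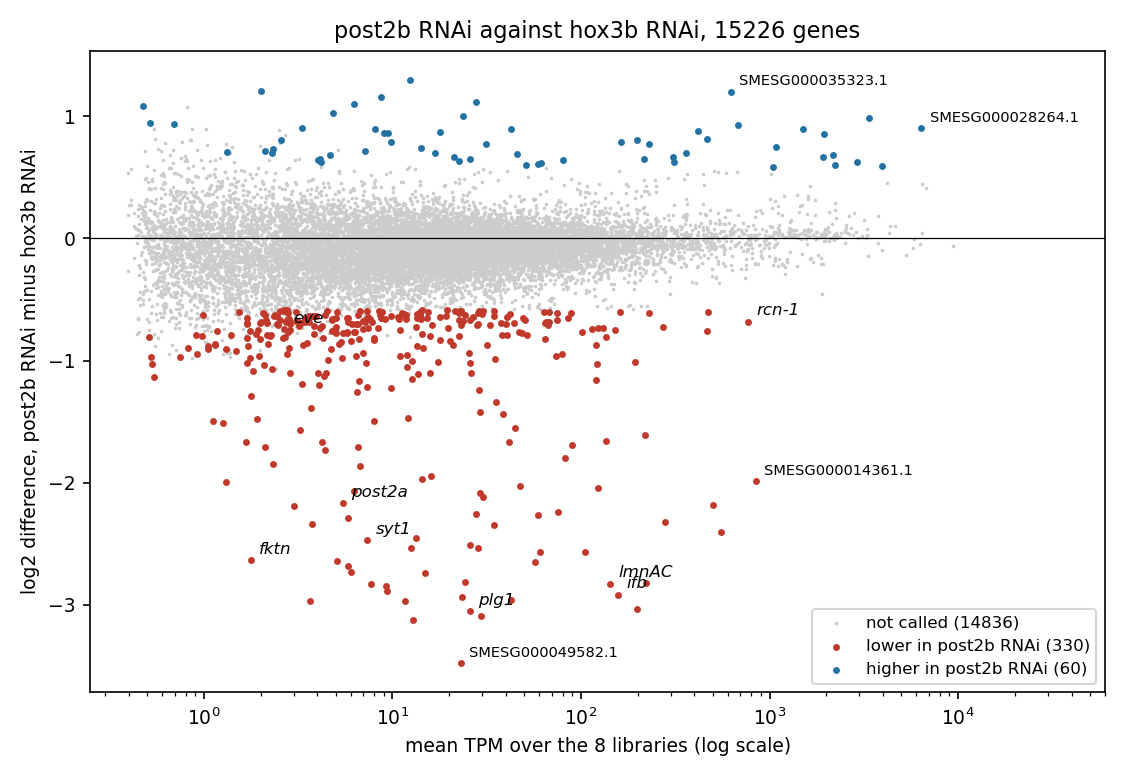
Mean TPM over the 8 libraries (horizontal axis, log scale) against the log2 difference between *post2b* and *hox3b* RNAi (vertical axis) for all 15226 genes. The 330 lower genes reach down to -3.48 and the 60 higher genes up to 1.30, and several of the higher genes lie at the abundant end.

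The median log2 difference over all genes tested was -0.08, so the bulk of transcripts lay slightly below 0. When the TPM of the 8 libraries were rescaled by their median of ratios, this median became 0.01, and 201 genes were lower and 80 higher, a share of 71.5% lower in place of 84.6%. All 201 of these lower genes were among the 330, and 56 of the 60 higher genes were called again. All 45 genes lower by at least 4-fold were called again.

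The libraries were alike within and between groups, with a correlation over genes of at least 0.988 between libraries of 1 group. *post2b* replicate 1 and *hox3b* replicate 4 lay nearest to the other group along the first principal component, and lay at opposite ends of the second. Without *post2b* replicate 1 the counts were 428 lower and 63 higher, without *hox3b* replicate 4 they were 438 and 75, and without *post2b* replicate 2 they were 211 and 39. Leaving out *post2b* replicate 1 and *hox3b* replicate 4 together, an alternative chosen after seeing the data, gave 619 lower and 79 higher. TPM carry no read depth, but the steps between low values put the depth of the 8 libraries within 0.768 to 1 of that of *post2b* replicate 1, with 17189 to 17713 genes above 0 in each.

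All 4 *post2b* libraries lay below all 4 *hox3b* libraries in 310 of the 330 lower genes, and above them in 53 of the 60 higher genes. Over all genes tested such a gap was present in 12.7% in the lower and 2% in the higher direction. The filter admitted 14 genes through the *hox3b* libraries alone, of which 5 were called lower, and 4 through the *post2b* libraries alone, of which 2 were called higher. The filter itself keeps the groups of such a gene from overlapping, so its call is no support for a difference. Of the genes called, 325 lower and 58 higher had at least 0.5 TPM in libraries of both groups.

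The direct comparison does not say which group departed from control RNAi, so the 4 control libraries were placed beside it as a description. The control mean fell between both group means in 240 of the 330 lower genes and in 47 of the 60 higher genes, against 26.0% of all genes tested. Genes were called for a wide gap between these means, in which any other mean falls more often, so this excess is no separate result. The control mean lay above both means in 82 of the lower genes and below both in 8. It was nearer to the *hox3b* mean in 72.4% of the lower genes and in 61.7% of the higher genes, close to the 64.8% of all genes tested. Among the 45 genes lower by at least 4-fold, the control mean was nearer to *hox3b* RNAi in 43.

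The median log2 difference of the 330 lower genes was -0.61 between *post2b* RNAi and control, and 0.21 between *hox3b* RNAi and control, in a fit over all 24 libraries. Over all genes tested the same medians were -0.15 and -0.05. For the 60 higher genes they were 0.49 and -0.32. Of the lower genes, 156 were called lower than control in *post2b* RNAi (4.73% of all genes were), and 15 were called higher than control in *hox3b* RNAi (0.246% of all genes were). Of the higher genes, 17 were called higher than control in *post2b* RNAi (0.329% of all) and 3 lower than control in *hox3b* RNAi (1.11% of all). These comparisons share libraries with the direct one, so the counts describe the genes and are not separate evidence for them.

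The genes listed as effectors of *post2b* were lower almost throughout. The study had listed 15 effector genes of *post2b*, genes whose own silencing reduced fission, and had chosen them from these same libraries against control, so their direction here is not independent evidence. Of the 15, 13 passed as lower in *post2b* than in *hox3b* RNAi and none as higher, with a median log2 difference of -2.17, beside 2.17%, 0.394% and a median of -0.08 over all genes tested. The 13 include *fktn*, which passed the filter through the *hox3b* libraries alone. The 15 differed from control in *hox3b* RNAi by log2 values between -0.55 and 0.13, none of which passed the test.

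The 7 anchor cell genes (population Epidermal-10) were all lower, and in each of them every *post2b* library lay below every *hox3b* library. Their summed TPM was 168, 127, 51.6 and 38.0 in *post2b* replicates 1 to 4, against 633, 573, 578 and 612 in the *hox3b* replicates, a ratio of group means of 6.22. In the 4 control libraries the sum lay between 575 and 729. These are whole animals, so fewer anchor cells and less RNA in each anchor cell cannot be told apart.

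*plg1*, which encodes a plasminogen-like protein of the serine protease family, was at 9.44, 6.32, 3.96 and 2.69 TPM in the *post2b* libraries and at 46.0, 41.8, 48.1 and 47.2 TPM in the *hox3b* libraries. The group means were 5.60 ± 2.97 and 45.8 ± 2.75 (SD, n = 4), a log2 difference of -3.05 (SE 0.26, adjusted p = 2.29e-05). On the log2(TPM + 0.5) scale it was the most reduced of the 15, and its control level of 50.6 ± 4.28 TPM was close to that of *hox3b* RNAi. *ifb* encodes an intermediate filament protein, and filaments of this kind carry tension in flatworm anchor cells. It was at 79.7, 56.4, 22.4 and 15.3 TPM after *post2b* RNAi and at 291, 260.0, 255 and 277 TPM after *hox3b* RNAi, with a log2 difference of -2.92 (SE 0.38, adjusted p = 6.72e-04). *lmnAC*, named for the nuclear lamins, a related branch of the intermediate filament family, was at 68.9, 55.6, 21.6 and 15.9 TPM against 260.1, 233, 238 and 247 TPM. Its log2 difference was -2.83 (SE 0.35, adjusted p = 4.58e-04). In both filament genes the *post2b* libraries spread over more than a 4-fold range while the *hox3b* libraries stayed within a narrow band.

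*post2a*, another posterior Hox gene, was at 2.55, 2.18, 0.995 and 1.25 TPM in *post2b* RNAi and 7.80, 9.80, 9.76 and 9.46 TPM in *hox3b* RNAi, a log2 difference of -2.17 (SE 0.21, adjusted p = 4.97e-05). *barHl2*, a homeobox gene of the BarH family, was at 1.81, 1.72, 0.921 and 1.15 TPM against 5.12, 5.62, 4.42 and 5.02 TPM, with a log2 difference of -1.57 (adjusted p = 1.76e-04). Both are genes for transcription factors at a low level. The unnamed anchor cell genes *dd13286* and *dd20390* differed by log2 values of -2.83 and -2.29 (adjusted p = 1.48e-04 and 1.35e-04), from means of 13.7 and 9.86 TPM in *hox3b* RNAi to 1.75 and 1.76 TPM in *post2b* RNAi. All 7 had higher values in *post2b* replicates 1 and 2 than in replicates 3 and 4, so the 4 *post2b* pools differed in the level of these transcripts. The cause was not tested.

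**Figure D2:**
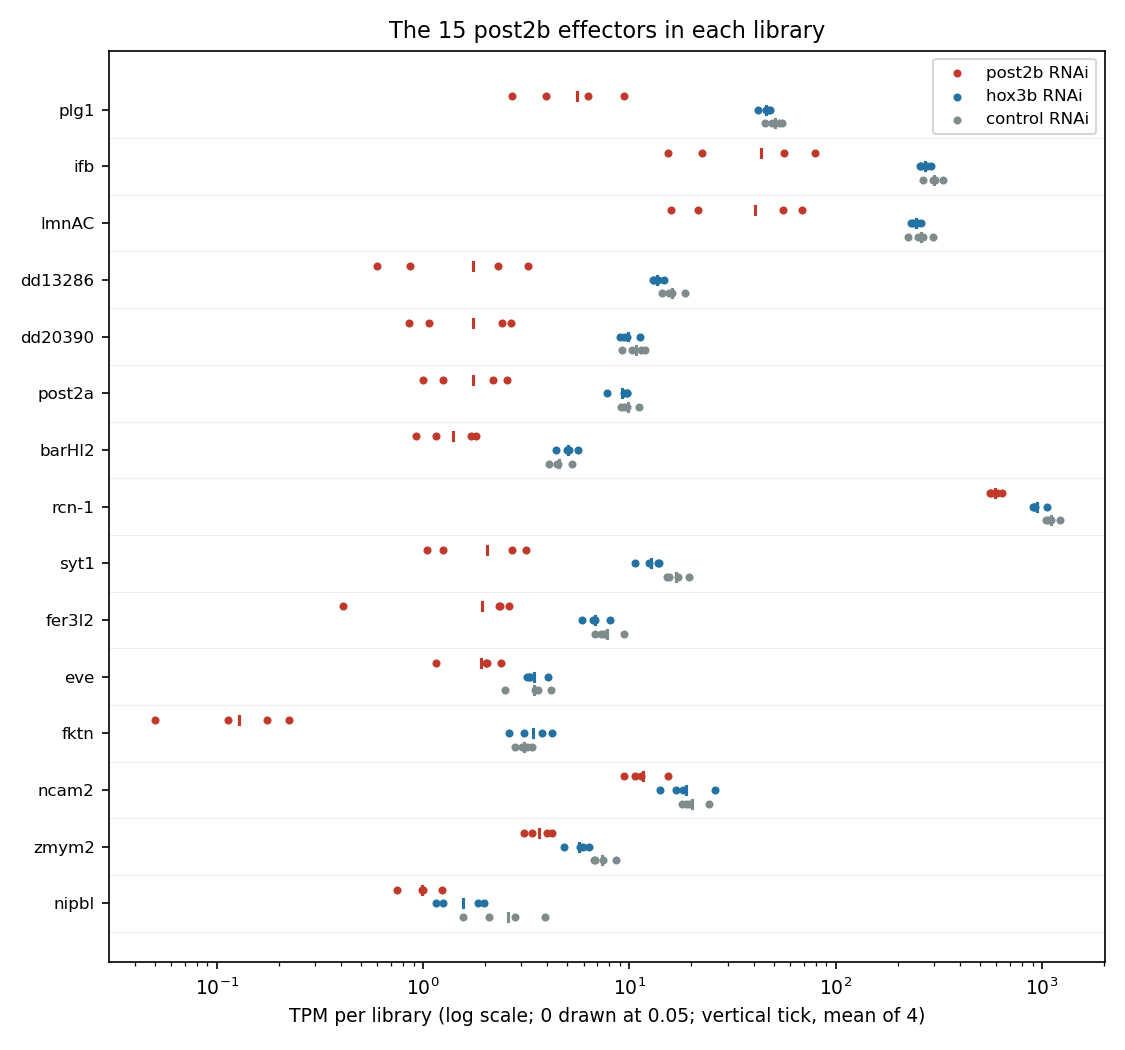
TPM in each library (log scale) of the 15 *post2b* effectors, with 4 points per group and the mean as a vertical tick, in *post2b*, *hox3b* and control RNAi. The anchor cell genes from *plg1* to *barHl2* have their *post2b* points far left of the other groups, while *ncam2* and *nipbl* overlap.

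The 3 viscid gland cell genes (Parenchymal-8/13) were also lower, but by unlike amounts. *syt1*, a synaptotagmin, a calcium sensor of vesicle release, was at 3.15, 2.70, 1.24 and 1.05 TPM in *post2b* RNAi and 12.4, 13.8, 13.9 and 10.6 TPM in *hox3b* RNAi, a log2 difference of -2.47 (SE 0.24, adjusted p = 6.72e-05). *fer3l2*, a basic helix-loop-helix transcription factor gene, was at 2.34, 2.37, 2.62 and 0.409 TPM against 6.82, 6.67, 8.02 and 5.87 TPM, a log2 difference of -1.74 (SE 0.32, adjusted p = 0.00647), and *post2b* replicate 4 lay far below the other 3. *rcn-1* encodes reticulocalbin, a calcium-binding protein of the endoplasmic reticulum, and is also assigned to progenitor populations. It was at 605, 567, 559 and 638 TPM against 906, 924, 1054 and 919 TPM, a log2 difference of -0.68 (SE 0.06, adjusted p = 3.26e-05). The groups did not overlap in any of the 3, and *rcn-1*, the most abundant, changed least.

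Of the effectors not assigned to the adhesive gland, *fktn*, for which no cell population is given, changed most. It encodes fukutin, in mammals an enzyme that adds sugars to dystroglycan, and was at 0.175, 0.225, 0.114 and 0 TPM in *post2b* RNAi and 3.77, 4.21, 2.62 and 3.07 TPM in *hox3b* RNAi. The log2 difference of -2.64 (SE 0.20, adjusted p = 8.58e-06) understates the ratio, because the added 0.5 TPM exceeds every *post2b* value. It was one of the genes that passed the filter through the *hox3b* libraries alone, so its call is no support for a difference. *eve*, the even-skipped homeobox gene (Parenchymal-6/10), was at 2.03, 2.05, 1.15 and 2.38 TPM against 3.19, 3.25, 4.02 and 3.32 TPM, a log2 difference of -0.74 (adjusted p = 0.0264). It did not overlap, but the call was lost under 6 alternatives, among them rescaling and leaving out *post2b* replicate 2 or 3 or *hox3b* replicate 1 or 3.

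The remaining 3 were near the limit or short of it. *ncam2*, a neural cell adhesion molecule gene, was at 15.4, 9.41, 10.6 and 11.4 TPM in *post2b* RNAi and 16.8, 26.0, 18.2 and 14.2 TPM in *hox3b* RNAi, and the groups overlapped. It passed narrowly, with a log2 difference of -0.65 and an adjusted p of 0.0414, and lost its call in 11 of the alternatives, with adjusted p up to 0.135. *zmym2*, a zinc finger gene, was at 3.39, 4.22, 3.98 and 3.07 TPM against 5.97, 6.36, 4.84 and 5.75 TPM without overlap, but its log2 difference of -0.58 (adjusted p = 0.0201) was just under the 1.5-fold limit. *nipbl*, named for the cohesin loader Nipped-B, was at 1.23, 0.989, 1.00 and 0.752 TPM against 1.97, 1.26, 1.84 and 1.16 TPM and overlapped, with a log2 difference of -0.45 (adjusted p = 0.175). Both had their highest group mean in control RNAi, at 7.40 ± 0.891 and 2.59 ± 1.00 TPM.

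None of the effectors of the other Hox genes separated both treatments. Of 9 listed genes 8 were tested, and *tdg* stayed below the filter. For *ca7*, a carbonic anhydrase gene and the only effector listed for both *hox3* genes, the values were 6.18, 4.41, 4.62 and 5.45 TPM in *post2b* RNAi and 4.52, 5.96, 4.79 and 4.01 TPM in *hox3b* RNAi, with a log2 difference of 0.09 (SE 0.14, adjusted p = 0.742). Its control level was 8.07 ± 0.673 TPM, above the mean of both groups. In the same fit with control, *ca7* was called lower in both, with log2 differences of -0.61 (adjusted p = 0.0173) and -0.70 (adjusted p = 0.0323).

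The *hox3a* effectors *gfm2*, a mitochondrial elongation factor gene, *dd25334* and *ctbp2*, a transcriptional corepressor gene, had log2 differences of -0.26, -0.14 and 0.11. The *lox5b* effectors *znf816*, *sox5* and *samcp* had -0.45, -0.33 and -0.25, and *gm2a*, the ganglioside activator gene listed for *hox1*, had 0.15. Adjusted p lay between 0.204 for *sox5* and 0.771 for *ctbp2*. A second gene model named as an elongation factor G was at means of 15.4 ± 0.991 and 17.4 ± 1.91 TPM and did not pass. The posterior Hox gene *post1* was near the floor at 0.609, 1.10, 0.634 and 1.34 TPM against 0.708, 0.746, 0.875 and 0.305 TPM, and the groups overlapped (log2 difference 0.29, SE 0.24, adjusted p = 0.5).

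Only 3.67% of the genes tested carry a product name or symbol in the sources used here, and 19 of the 330 lower genes and none of the 60 higher genes do. The muscle and cilium genes listed further on have identifiers no higher than SMESG000003705.1, while those of tested genes reach at least SMESG000074896.1. Product names of this kind thus cover the identifiers unevenly, and a gene without a name here need not be uncharacterized. Beside the effectors, 2 named genes were more than 4-fold lower. The gene for a 16 kDa calcium-binding protein (SMESG000000553.1) was at 54.4, 56.8, 19.4 and 11.2 TPM in *post2b* RNAi and 172, 168, 164 and 191 TPM in *hox3b* RNAi, a log2 difference of -2.57 (SE 0.39, adjusted p = 0.00195). Like the anchor cell genes it was higher in *post2b* replicates 1 and 2 than in 3 and 4. A gene named Venom allergen 5 (SMESG000001227.1), of a family of secreted cysteine-rich proteins, was at 23.1, 19.4, 15.8 and 11.9 TPM against 115, 106, 110.0 and 86.0 TPM, a log2 difference of -2.57 (SE 0.16, adjusted p = 1.98e-06). Its control mean of 104 ± 9.36 TPM equalled that of *hox3b* RNAi within the spread. The *lox5b* libraries were also below control, at 38.0, 36.9, 49.9 and 55.8 TPM, a contrast that was not tested.

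The other 4 named genes differed by less. An innexin gene (SMESG000000555.1), a subunit of invertebrate gap junctions, was at 0.145, 0.279, 0.188 and 0 TPM against 1.26, 0.886, 0.953 and 0.634 TPM, a log2 difference of -1.14 (adjusted p = 0.00944) close to the detection floor. It too passed the filter through the *hox3b* libraries alone, so its call is no support for a difference. A gene named Slit-2 (SMESG000002157.1), for a secreted guidance cue, was at 4.12, 4.03, 3.79 and 4.43 TPM against 6.71, 7.97, 8.29 and 6.60 TPM, a log2 difference of -0.78 (adjusted p = 0.00165). Its *post2b* values were nearly equal across pools. A gene named Fos-1 (SMESG000003328.1), an AP-1 transcription factor, was at 38.9, 34.6, 40.5 and 41.9 TPM against 64.2, 69.1, 62.2 and 53.3 TPM, a log2 difference of -0.66 (adjusted p = 5.30e-04), which came under the fold limit on rescaling. The last was a gene named Protein sel-1-like 3 (SMESG000002836.1), outside the rule for named genes, at 2.51, 1.5, 1.66 and 2.44 TPM against 3.12, 3.20, 3.62 and 3.10 TPM (log2 difference -0.59, adjusted p = 0.0455).

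On the log2(TPM + 0.5) scale, the 3 largest differences of the whole comparison were in genes without a name, of which SMESG000050244.1 is given further on. SMESG000049582.1 was at 3.72, 4.24, 2.37 and 3.00 TPM in *post2b* RNAi and 39.1, 58.0, 46.4 and 28.1 TPM in *hox3b* RNAi, a log2 difference of -3.48 (SE 0.20, adjusted p = 9.93e-07). SMESG000051338.1 was at 3.37, 2.43, 1.93 and 1.49 TPM against 23.7, 21.2, 25.7 and 22.5 TPM, a log2 difference of -3.12 (SE 0.17, adjusted p = 8.03e-07). In both, control RNAi was at the level of *hox3b* RNAi, with means of 41.8 ± 4.04 and 25.8 ± 2.29 TPM. The *lox5b* means were lower, at 8.56 and 17.7 TPM, and the *hox1* means were 24.6 and 29.2 TPM. These contrasts were not tested. SMESG000043423.1 was at 6.59, 38.6, 121 and 75.6 TPM against 331, 328, 431 and 245 TPM, and its spread gave an SE of 0.63 on a log2 difference of -3.04 (adjusted p = 0.0127). The 4 control values of this gene, 204, 429, 608 and 104 TPM, ran from below the lowest *hox3b* library to above the highest, so it varied widely between pools of 1 treatment.

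The most abundant lower genes were SMESG000014361.1, SMESG000045893.1 and *rcn-1*. SMESG000014361.1 was at 443, 446, 271 and 247 TPM in *post2b* RNAi and 1459, 1250.0, 1332 and 1348 TPM in *hox3b* RNAi, a log2 difference of -1.99 (SE 0.16, adjusted p = 1.88e-05). SMESG000045893.1 was at 236, 255, 125 and 122 TPM against 989, 795, 893 and 1036 TPM, a log2 difference of -2.40 (SE 0.21, adjusted p = 2.62e-05). Each was again higher in *post2b* replicates 1 and 2 than in 3 and 4, and each stayed far below every *hox3b* library. The summed level of all 330 lower genes was 7013 TPM after *post2b* RNAi, 16541 TPM after *hox3b* RNAi and 14795 TPM in control pools.

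The unevenness between *post2b* pools was common among the most reduced genes. Of the 45 genes lower by at least 4-fold, 30 had both *post2b* replicates 1 and 2 above both replicates 3 and 4, and replicate 1 was the highest *post2b* library in 26. Over all genes tested, 16.2% had replicates 1 and 2 above 3 and 4. Even so, no *post2b* library overlapped the *hox3b* libraries in any of the 45. Their *hox3b* means ran from 3.42 to 928 TPM, and 10 of the 45 have a name or symbol. The lowest of these means is that of *fktn*, which passed the filter through the *hox3b* libraries alone.

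A smaller set of lower genes was marked by a rise in *hox3b* RNAi. In 15 of the 330, *hox3b* RNAi was also called higher than control, and these 15 were picked out after their values were seen. In 5 of them *post2b* RNAi was called lower than control as well, so that both treatments lay on opposite sides of control. Of these, SMESG000050244.1 was at 3.57, 6.60, 6.10 and 7.64 TPM in *post2b* RNAi and 45.9, 62.2, 51.3 and 53.6 TPM in *hox3b* RNAi, with the control libraries at 9.59, 38.0, 31.0 and 12 TPM. Its log2 difference between *post2b* and *hox3b* RNAi was -3.09 (SE 0.18, adjusted p = 9.67e-07), made up of -1.66 against control in *post2b* RNAi (adjusted p = 0.00222) and 1.43 in *hox3b* RNAi (adjusted p = 0.0262). The 4 control libraries did not reach into either group.

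SMESG000055624.1 was at 1.04, 2.01, 1.52 and 3.18 TPM after *post2b* RNAi, at 6.17, 4.73, 6.13 and 4.00 TPM in control pools and at 13.1, 22.8, 17.7 and 12.9 TPM after *hox3b* RNAi, a log2 difference of -2.85 between the 2 RNAi groups (SE 0.25, adjusted p = 2.61e-05). SMESG000040596.1 was at 52.8, 84.5, 120.3 and 130.0 TPM, 264, 268, 307 and 85.1 TPM and 476, 439.7, 481 and 441 TPM in the same order, a log2 difference of -2.32 (adjusted p = 3.21e-05). Their means were in the order *post2b*, control, *hox3b*, although 1 control library of SMESG000040596.1 fell among the *post2b* values. The other 2 of the 5 were SMESG000018453.1 and SMESG000040102.1, with log2 differences of -2.07 and -1.34. The *hox1* and *lox5b* means were 2.04 and 1.83 TPM in SMESG000055624.1, against a control mean of 5.26 TPM. In SMESG000040102.1 they were 27.5 and 24.2 TPM, against 30.9 TPM in control. In SMESG000050244.1 they were 8.24 and 4.06 TPM, against 22.7 TPM in control. In SMESG000040596.1 they were 150 and 77.9 TPM against 231 TPM, and in SMESG000018453.1 3.17 and 1.64 TPM against 5.16 TPM. A mean below control was thus not particular to *post2b* RNAi in any of the 5, and these contrasts were not tested. None of the 15 carries a product name.

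**Figure D3:**
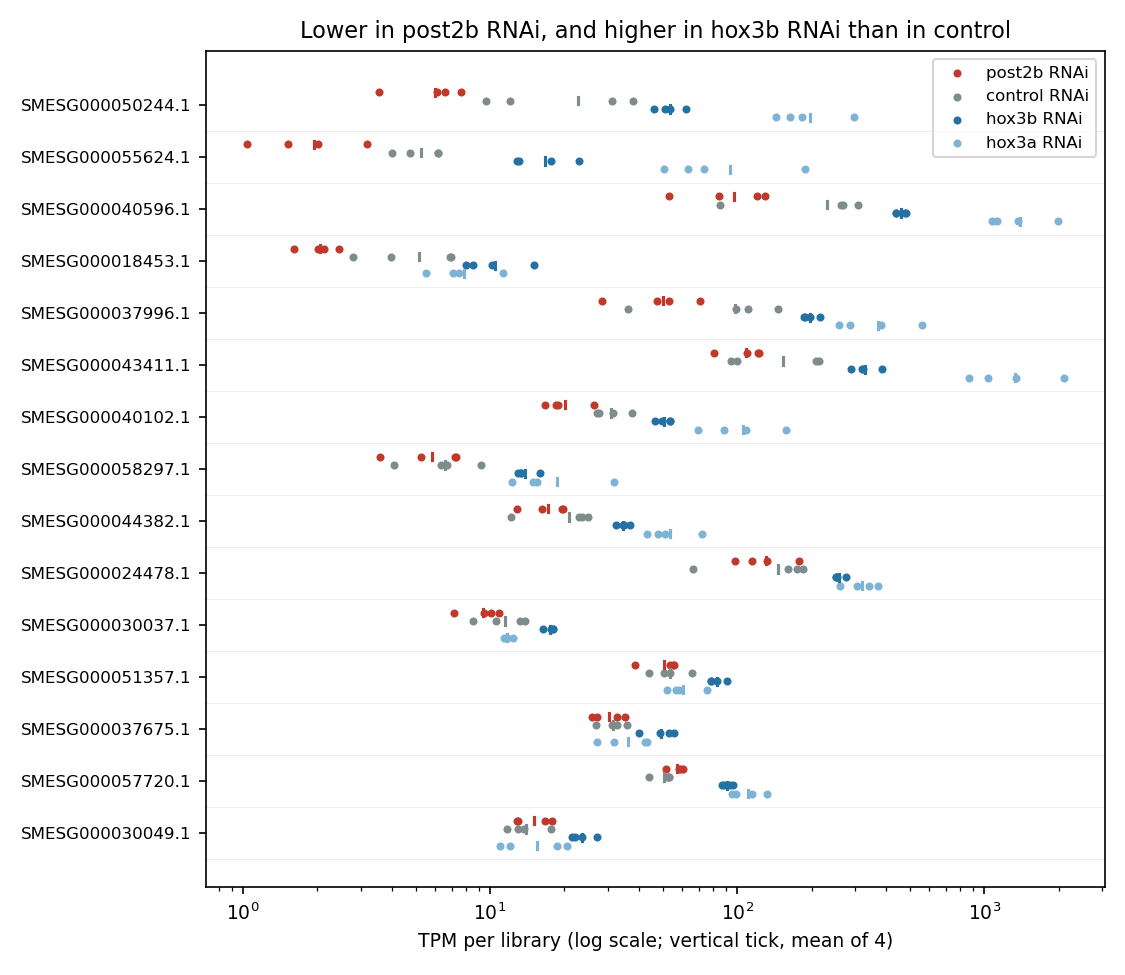
TPM in each library (log scale) of the 15 genes lower in *post2b* than in *hox3b* RNAi whose *hox3b* level was called above control, 4 points per group with the mean as a tick. In all 15 the *hox3b* points lie right of the *post2b* points, and in 10 the mean of *hox3a* RNAi lies further right still.

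*hox3a* RNAi, the group nearest to *hox3b* by gene class, was used to ask whether these levels belong to both *hox3* treatments. Between *hox3a* and *hox3b* RNAi 29 genes were lower (0.183% of 15829 tested over all libraries) and 46 higher (0.291%). None of the 15 *post2b* effectors was among them, and *fktn* came closest, with a log2 difference of -0.69 (adjusted p = 0.0532). SMESG000050244.1 was at 144, 182, 163 and 298 TPM in *hox3a* RNAi, above its *hox3b* level by a log2 value of 1.83 (SE 0.36, adjusted p = 0.00938). SMESG000055624.1 and SMESG000040596.1 were likewise higher in *hox3a* RNAi, by 2.30 (adjusted p = 3.15e-04) and 1.56 (adjusted p = 0.0127). Of the 330 lower genes, 12 were higher and 8 lower in *hox3a* than in *hox3b* RNAi.

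The genes that were higher in *post2b* RNAi were fewer, changed less and included very abundant ones. Their median over the 8 libraries was 26.8 TPM, against 7.74 TPM for the lower genes and 15.5 TPM for all genes tested. Of the 60, 22 had a mean of at least 100 TPM, and together these 22 made up 41004 TPM after *post2b* RNAi, 24001 TPM after *hox3b* RNAi and 30543 TPM in control pools. The groups did not overlap in any of the 22, control lay between both means in 21, and all 22 were called again after rescaling.

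The most abundant was SMESG000028264.1, at 8433, 9588, 8814 and 6479.7 TPM in *post2b* RNAi and 3432, 4327, 5445 and 4648 TPM in *hox3b* RNAi, a log2 difference of 0.90 (SE 0.14, adjusted p = 0.00166). SMESG000074187.1 was at 4718, 4989.5, 4794 and 3431 TPM against 1796, 2117, 2788 and 2343 TPM, a log2 difference of 0.99 (SE 0.13, adjusted p = 8.08e-04). SMESG000028261.1 was at 4765, 5203, 4843 and 4124 TPM against 2547, 3023, 3605 and 3475 TPM, and its log2 difference of 0.59 (SE 0.10, adjusted p = 0.00456) lay so near the fold limit that leaving out any of 5 single libraries lost the call. Against control none of the 3 passed in either treatment. SMESG000028264.1 had log2 differences of 0.36 in *post2b* RNAi (adjusted p = 0.104) and -0.54 in *hox3b* RNAi (adjusted p = 0.0578), so its direct difference was the sum of 2 smaller values of opposite sign, neither of them past the test.

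The largest differences in the higher direction were smaller than those in the lower direction. SMESG000043890.1 was at 12.3, 26.9, 14.4 and 17.5 TPM in *post2b* RNAi and 5.25, 4.19, 9.33 and 9.25 TPM in *hox3b* RNAi, a log2 difference of 1.30 (SE 0.26, adjusted p = 0.0106). SMESG000035323.1 was at 734, 1032, 1037 and 675 TPM against 281, 384, 509.6 and 343 TPM, a log2 difference of 1.20 (SE 0.17, adjusted p = 0.00119). Both kept a gap between the groups, although *post2b* replicate 2 stood above the rest in the first. SMESG000043373.1, SMESG000029594.1 and SMESG000035412.1 had log2 differences of 1.16, 1.12 and 1.02 (adjusted p = 9.65e-04, 0.00115 and 9.50e-04). Their *post2b* means were 12.2 ± 2.62, 37.7 ± 4.37 and 6.64 ± 0.947 TPM, against 5.18 ± 0.947, 17.6 ± 5.29 and 3.01 ± 0.462 TPM in *hox3b* RNAi. In the fit with control, SMESG000035412.1 was called lower in *hox3b* RNAi (log2 difference -0.70, adjusted p = 0.0105). In *post2b* RNAi it did not pass (0.32, adjusted p = 0.0923). SMESG000043373.1 and SMESG000029594.1 had control means of 7.09 and 23.9 TPM, *hox1* means of 10.2 and 33.6 TPM and *lox5b* means of 10.3 and 52.0 TPM.

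**Figure D4:**
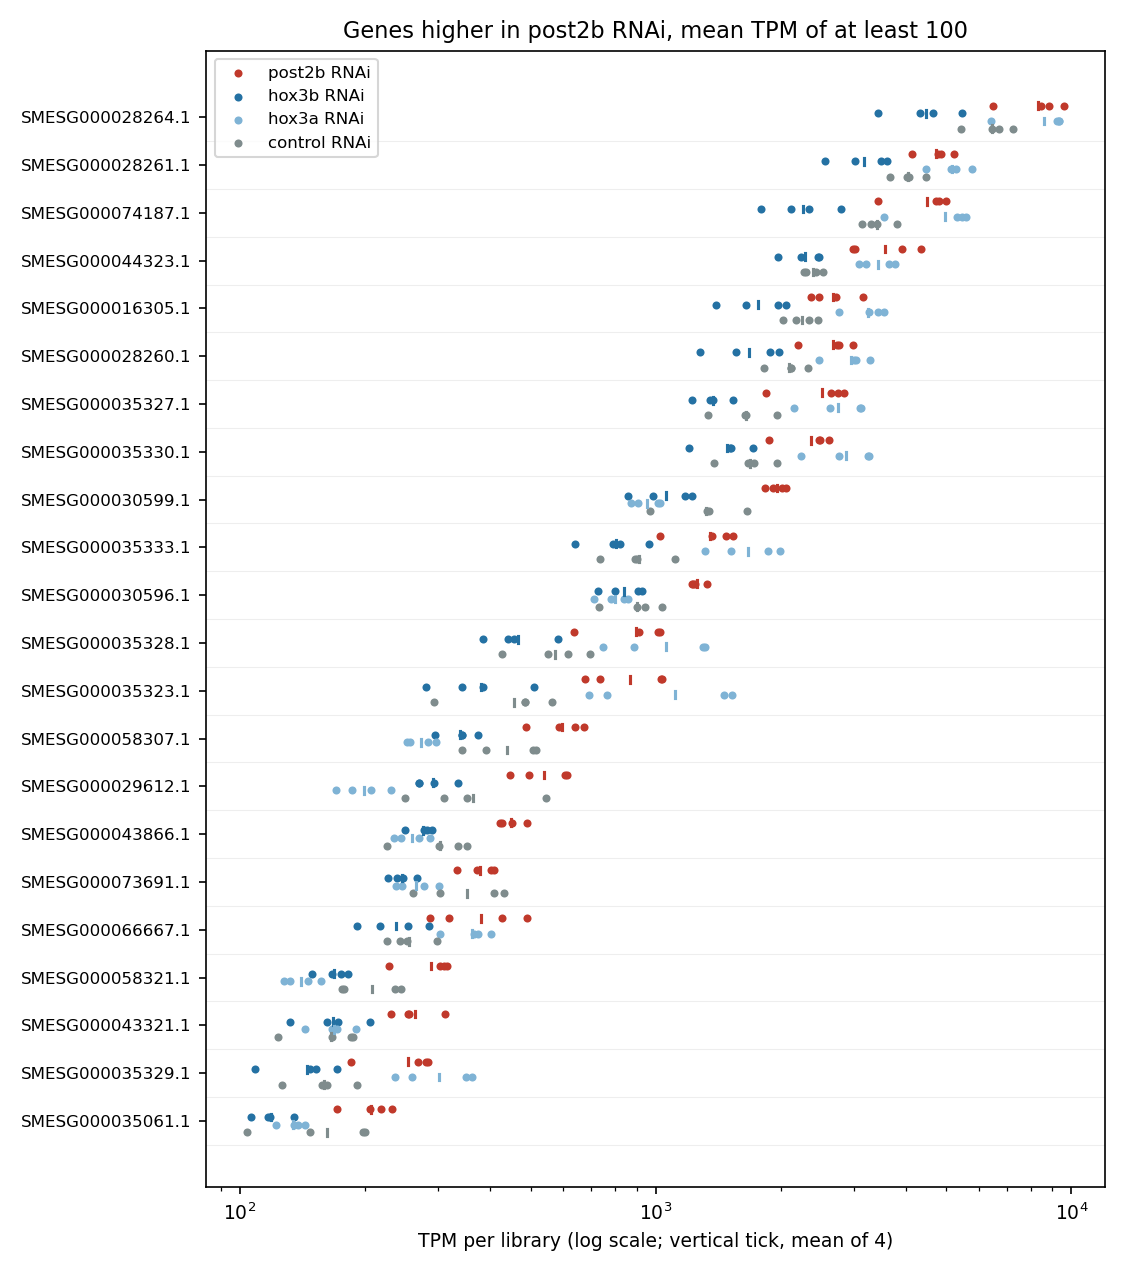
TPM in each library (log scale) of the 22 higher genes with a mean of at least 100 TPM, 4 points per group and the mean as a tick, in *post2b*, *hox3b*, *hox3a* and control RNAi. The *post2b* points lie right of the *hox3b* points in all 22. The *hox3a* points lie beside the *post2b* points in the SMESG000028264.1 and SMESG000035323.1 rows, and beside the *hox3b* points in the SMESG000030599.1 row.

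The abundant genes fell into sets by their level in *hox3a* RNAi. In 12 of the 22, *hox3a* RNAi was higher than *hox3b* RNAi as well, by log2 values between 0.59 and 1.49, so that *hox3b* RNAi was the low group of the 3. SMESG000035323.1 was at 1526, 693, 761 and 1463 TPM in *hox3a* RNAi (log2 difference from *hox3b* 1.49, adjusted p = 0.0368), and SMESG000028264.1 at 9336, 6418, 9242 and 9306 TPM (0.94, adjusted p = 0.00369). The low level was not particular to *hox3b* RNAi. In SMESG000035323.1 and SMESG000028264.1 the means of *lox5b* RNAi were 63.6 and 1976 TPM, against 379 and 4463 TPM in *hox3b* RNAi, a contrast that was not tested. In the other 10 of the 22 the contrast of *hox3a* with *hox3b* RNAi did not pass. SMESG000030599.1, named here after its values were seen, was at 2014, 2053, 1836 and 1913 TPM in *post2b* RNAi, 1224, 859, 982 and 1179 TPM in *hox3b* RNAi and 905, 1024, 1011 and 871 TPM in *hox3a* RNAi (log2 difference between *hox3a* and *hox3b* -0.14, adjusted p = 0.529). There *post2b* RNAi was the group apart, with a log2 difference of 0.59 from control (adjusted p = 0.00132).

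Several called genes had neighbouring identifiers. Of 9 tested genes between SMESG000035323.1 and SMESG000035333.1, 7 were higher in *post2b* RNAi, with log2 differences from 0.67 to 1.20 and a summed level of 8264 TPM against 4660 TPM in *hox3b* RNAi. Of 5 tested genes between SMESG000028258.1 and SMESG000028264.1, 4 were higher, at a sum of 15786 against 9331 TPM. Among the lower genes, all 4 between SMESG000014347.1 and SMESG000014352.1 and all 3 between SMESG000043388.1 and SMESG000043393.1 were called, and 3 of 4 between SMESG000037996.1 and SMESG000038000.1, the other at a log2 difference of -0.08. The sources used here do not say whether these are copies of each other, and reads of near-identical copies could have been split between them, so each such run may hold fewer independent genes than its count.

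Genes with a product name were also counted in 16 lists of function or cell type. The lists share the uneven cover of the names, so their medians are not those of whole functions or cell types. Of 229 tested genes in at least 1 list, 5 were lower and none higher, against 2.17% and 0.394% of all genes tested. The 5 are the genes named 16 kDa calcium-binding protein, Venom allergen 5, Innexin, Slit-2 and Fos-1 described above, each in a different list. This count was 8 to 10 without *post2b* replicate 1, 3 or 4 or *hox3b* replicate 4. The other 11 lists had no member past the test.

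The list of muscle and contraction genes had the lowest median log2 difference, -0.37, beside -0.08 over all genes tested. All 10 members had a lower mean in *post2b* RNAi, but none reached the 1.5-fold limit, and after rescaling 9 of the 10 stayed below 0. Over all genes tested 68.9% lay below 0, and 48.7% after rescaling. A gene named Transgelin, an actin-binding protein of muscle, came nearest, at 46.9, 46.4, 46.1 and 52.5 TPM in *post2b* RNAi and 71.9, 73.8, 73.1 and 64.0 TPM in *hox3b* RNAi, with a log2 difference of -0.55 (adjusted p = 3.30e-04). The groups did not overlap, and control lay between them at 54.8 ± 3.60 TPM. The gene named Myosin regulatory light chain was level, with means of 955 ± 24.5 and 963 ± 19.8 TPM.

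The 11 tested genes of cilium and axoneme had the highest list median, 0.10, with log2 differences from -0.05 to 0.20 and a lowest adjusted p of 0.179. Of these, 8 were above 0, and all 11 after rescaling, beside 31.1% and 51.3% of all genes tested. Genes of cell division and DNA replication had a median of -0.03 over 13 members, and those of ribosome and translation 0.01 over 19. Ion channels and innexins had -0.31 over 24 members and G-protein coupled receptors -0.25 over 17, with 1 and none past the test. The anchor cell genes had a median of -2.83 over 7. The study chose them from these same libraries against control, so their distance from the lists is no result.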

How the data were processed

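Whole-animal polyA RNA was sequenced in the 4 *post2b* and 4 *hox3b* RNAi libraries, with the other 16 of the 24 libraries as background. Demultiplexing used bcl2fastq2 (version 2.20). STAR then mapped reads onto the smed_dd_g4 assembly, and counts were taken per Smes_hv_v1 gene model, per the study's methods. The TPM deposited by the authors hold 22197 genes. The tool that turned counts into TPM is not given in the sources used here. Depth is lost in TPM, which leaves counting error unknown, and p-values measure the spread between pools of 3 animals. Reads of near-identical copies may be shared.

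Genes with at least 0.5 TPM in at least 4 of the 8 libraries were compared as log2(TPM + 0.5) in limma 3.58.1 under R 4.3.3, with a group term and an intensity trend. Two-sided p-values were adjusted after Benjamini and Hochberg across every gene tested, and a gene was called at 1.5-fold and an adjusted p under 0.05. A second fit over all 24 libraries gave contrasts with control and of *hox3a* with *hox3b* RNAi. Each log2 difference is on the log2(TPM + 0.5) scale, which understates changes of low genes. The fit was first tested on simulated data with known changes. Alternatives were pseudocounts of 0.1 and 1, no filter, a mean of at least 2 TPM, rescaling by the median of ratios, no trend, all 24 libraries, a replicate block, a fold of 2, and each library left out.

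Named genes were the listed effectors with *post1* and *post2a*. In each direction, called genes with a mean of at least 1 TPM and no overlap were added: up to 10 with a product name and 5 of any name, by size of difference. The 3 most abundant called genes in each direction and the called members of the 16 product-name lists completed the set of 44. The genes, lists and tests were chosen with earlier results of these data known. Product names came from the study's supplementary lists, and its own fold changes and p-values were not used.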

Additional observations from a re-analysis of the deposited data

Results flagged for a closer look

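In 88 groups of 4 libraries, 2 for each named gene, 4 had a library far from the other 3, where chance gives about 1 in 20. *fer3l2* had its lowest *post2b* library apart, with a gap of 0.876 of the group's range. *rcn-1* and *eve* had their highest *hox3b* library apart, with gaps of 0.878 and 0.840, and *post2a* its lowest *hox3b* library, with a gap of 0.833.

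For 5 of the 44 named genes the level differed between *hox3a* and *hox3b* RNAi (limma, adjusted over 15829 genes), so the distance from *post2b* RNAi depends on which *hox3* gene was silenced. In log2 units *hox3a* exceeded *hox3b* RNAi by 1.83 in SMESG000050244.1, which is lower in *post2b* RNAi, and by 0.71 in SMESG000028261.1, 0.94 in SMESG000028264.1, 1.13 in SMESG000074187.1 and 1.49 in SMESG000035323.1, which are higher in it.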

How the results depend on the processing

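The direction of the 32 named genes called did not reverse under any alternative, and 27 kept their call under the 17 alternatives other than a fold of 2. The exceptions were *eve*, *ncam2*, Fos-1, SMESG000028261.1 and SMESG000043423.1, the last without the intensity trend. At a fold of 2, 24 of the 32 and 10 of the effectors were called, and *rcn-1*, Slit-2, SMESG000028264.1 and SMESG000074187.1 were lost beside the first 4 of these exceptions. Rescaling by the median of ratios gave 201 lower genes in place of 330, and put control nearer to *hox3b* RNAi in 66.2% of them in place of 72.4%. A fold of 2 gave 102 lower and 9 higher genes, 3 list members, 3 named genes differing between *hox3a* and *hox3b* RNAi, and shares nearer to *hox3b* RNAi of 77.5% and 77.8%. With all 24 libraries in the model the share for lower genes was 78.1%. A pseudocount of 0.1 called 9 list members in place of 5. Leaving out *post2b* replicate 1 and *hox3b* replicate 4 together, chosen after seeing the data, gave 619 lower genes, 16 list members and a share of 80.0%.

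With 1 library left out, lower genes ranged from 211 (without *post2b* replicate 2) to 438 (without *hox3b* replicate 4) and higher genes from 39 to 75. List members ranged from 5 to 10, with 8 or more without *post2b* replicate 1, 3 or 4 or *hox3b* replicate 4. Named genes differing between *hox3a* and *hox3b* RNAi ranged from 3 (without *hox3b* replicate 1) to 5, shares for lower genes from 67.1% to 76.6%, for higher genes from 53.8% to 67.5%, and effectors called from 11 to 13. The cause was not tested.

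A replicate block called 299 lower and 63 higher genes and 11 effectors, without *eve* and *ncam2*. Same-numbered libraries did not deviate together (r from -0.10 to 0.10, 1 of 4 pairs over 0.1), so no pairing by number was seen. Of the 8 libraries, 2 correlated best with their own number. Between unlike numbers, *post2b* replicate 1 had r = 0.33 with *hox3b* replicate 2 and r = -0.34 with *hox3b* replicate 4. The cause was not tested.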
